A study of Mus musculus with 29 samples.

Results

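Loss of PKCδ from the heart was compared with its presence on a PKCε-null background, in mice whose aortic arch had been tied narrower 4 weeks earlier. This operation, transverse aortic constriction (TAC), makes the left ventricle pump against raised pressure. The comparison was chosen by label: the 4 TAC libraries named combined knockout against the 4 TAC libraries named PKCε knockout, 8 of the 29 libraries of the series, over all 13765 genes that passed a filter on low counts. Both groups are labelled as germline knockouts of PKCε, which the Prkce level of 1 combined library goes against. The combined group is also labelled as lacking PKCδ through an ablation made in the heart after birth, and the promoter that drove it is not given in the sources used here. All 29 libraries were polyadenylated RNA of C57BL/6J hearts. Age was labelled 12 weeks in TAC and unstressed mice alike. The tissue label names the whole heart, while the extraction protocol names the frozen ventricular apex. Used beside the 8 libraries were unstressed hearts of the same genotypes (3 PKCε-null, 4 combined), and TAC hearts with intact PKCε (4 wild type, 3 with PKCδ ablated). The labels name no sham operation. They do not say which animals the libraries came from, so the p-values here speak only of variation from library to library.

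PKCδ and PKCε are serine/threonine kinases that respond to diacylglycerol without calcium, downstream of Gq-coupled receptors such as those for angiotensin II and endothelin. In heart muscle PKCε is best known for its place at the Z disc and mitochondria and for protection from ischaemia, and PKCδ for links to cell death and matrix production. Pressure overload is known to bring back fetal genes such as Nppa, Nppb, Myh7 and Acta1, to build up extracellular matrix and to lower the transcripts of fatty acid oxidation. The comparison asks what PKCδ still contributes to that program once PKCε is gone.

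Counts assigned to genes ran from 12246814 to 17314739 over the 8 libraries. Levels below are CPM, counts scaled to library size, in the order of replicates 1 to 4. Prkce, the gene of PKCε, stood at 10.8, 7.25, 10.6 and 9.16 CPM in PKCε-null hearts and at 9.70, 31.5, 8.20 and 10.97 CPM in combined hearts. Combined replicate 2 went against its label, since the TAC libraries with intact PKCε held 24.0 to 44.7 CPM. Myh2, singled out after its values were seen, stood at 0.152 CPM in that library and at 2.99 to 18.1 CPM in the other 7. In unstressed hearts it held 14.5 to 28.8 CPM in PKCε-null and 0 to 0.167 CPM in combined libraries, so its level does not check the label. In what follows it is "the library labelled combined replicate 2", and results are given with and without it.

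Prkcd, the gene of PKCδ, stood at 23.7, 25.9, 24.3 and 24.9 CPM in PKCε-null hearts and at 18.5, 16.1, 25.5 and 22.0 CPM in combined hearts, so the groups overlapped (log2 difference -0.26 ± 0.12 SE, adjusted p = 0.40). The count covers the whole gene in all cells of the apex and the deleted part is not named, so it does not check the PKCδ label. Sex was labelled male in all 4 PKCε-null libraries and female, female, male and female in the combined ones. Transcripts of the sex chromosomes did not follow these labels. Xist, made from the inactive X, stood at 118, 115, 92.7 and 7.65 CPM in PKCε-null and 26.1, 162, 124 and 112 CPM in combined libraries. The sum of 4 Y-linked genes stood at 0.0635, 3.38, 18 and 54.9 CPM against 66.0, 0, 0 and 0.0619 CPM. The labels also nearly follow genotype, so a sex term would leave the comparison resting on the only combined library labelled male and on the sex effect of other groups. For both reasons the sex label was not a term of the fit, and its effect is given beside the results. All unstressed libraries were labelled male, but their transcripts did not follow the label either. Xist stood at 53.7, 1.47 and 168 CPM in unstressed PKCε-null and 2.70, 130, 42.1 and 128 CPM in unstressed combined libraries. The Y-linked sum stood there at 44.8, 58.8 and 0.0778 against 44.1, 1.83, 27.1 and 0.755 CPM.

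**Figure D1:**
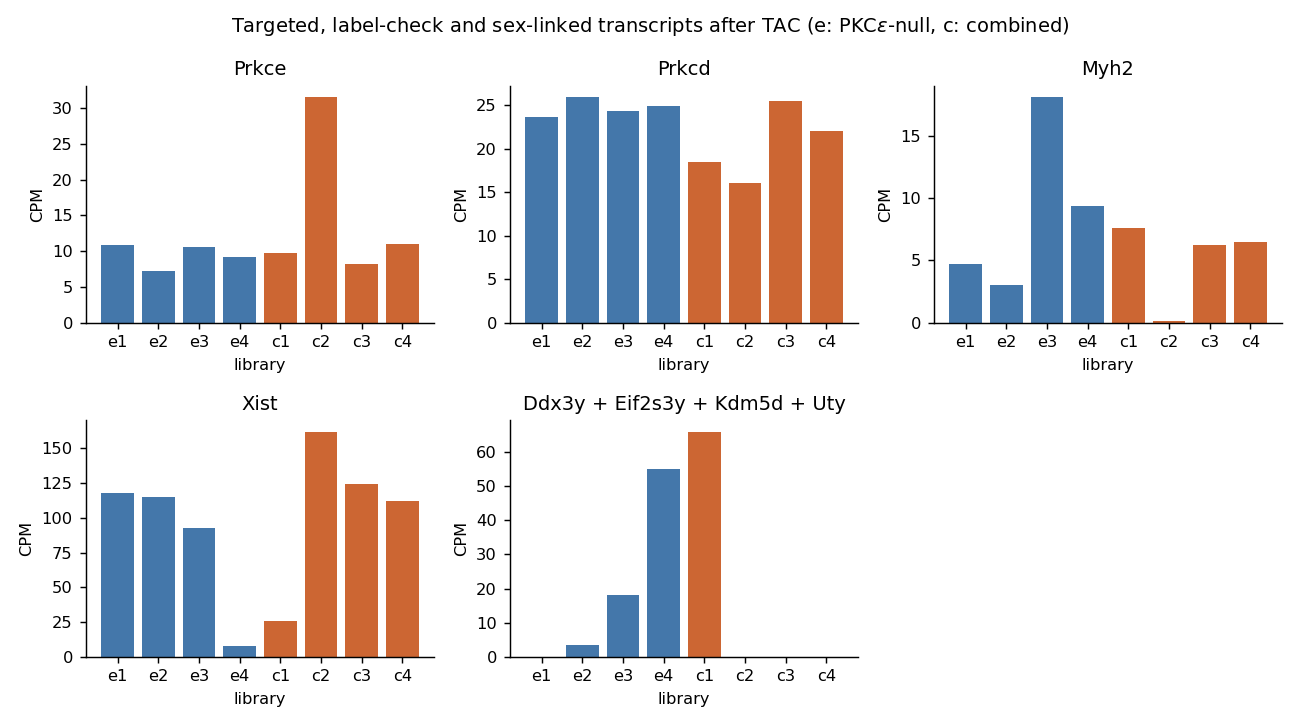
CPM of Prkce, Prkcd, Myh2, Xist and the sum of 4 Y-linked genes, 1 bar per TAC library (e: PKCε-null, c: combined; number: replicate). Combined replicate 2 stands apart with 31.5 CPM of Prkce and 0.152 CPM of Myh2.

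Few transcripts separated combined from PKCε-null hearts after TAC. Nupr1, Eppk1 and Fam105b were higher in combined hearts, and 10 genes were lower, among them the urocortin receptor gene Crhr2, amino acid and coenzyme A carriers, both alanine aminotransferases and the nuclear regulators Hopx and Hdac11. These 13 of 13765 genes (0.0944%), 3 higher (0.0218%) and 10 lower (0.0726%), passed an adjusted p under 0.05 (edgeR's quasi-likelihood test, 4 against 4, all 29 libraries in 1 fit). Their fold differences ran from 1.27 to 2.98. In 11 of the 13 the groups did not overlap, where 1.33% of all genes lay fully higher and 1.81% fully lower. At an unadjusted p under 0.05 stood 1501 genes (10.9%), 791 higher and 710 lower. All 13 calls were lost with the sex label as a term (832 genes at an unadjusted p under 0.05), with only the 15 TAC libraries in the fit (1247) and with only the 8 libraries compared (761), while DESeq2 called 113 genes, 12 of the 13 among them. All 13 kept their direction when any 1 of the 8 libraries was left out. All stayed called without PKCε-null replicate 1 (109 calls in all), combined replicate 2 (234) or combined replicate 3 (81). Of the 13, 9 stayed without combined replicate 4 (24 calls), 9 without PKCε-null replicate 3 (18), 7 without PKCε-null replicate 4 (10), 3 without PKCε-null replicate 2 (4) and 1 without combined replicate 1, the single call there. In whole tissue, fewer cells of a type and less RNA per cell cannot be told apart.

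Nupr1, a small chromatin-associated protein induced by many cell stresses, stood at 15.2, 10.2, 10.8 and 6.93 CPM in PKCε-null hearts and at 30.8, 15.1, 23.6 and 20.3 CPM in combined hearts. The lowest combined library, the one labelled replicate 2, lay just under the highest PKCε-null one. It was 1.05 ± 0.18 higher on the log2 scale (SE, adjusted p = 0.0097). Its promoter is printed here, as that of the called gene with the smallest adjusted p among those that rose. The 250 bases before its start, from RefSeq's table on GRCm38.p6 (chr7:126625471-126625720, minus strand, 5′ to 3′), hold an E-box, shown in capitals, that begins 225 bases before the start:
Nupr1: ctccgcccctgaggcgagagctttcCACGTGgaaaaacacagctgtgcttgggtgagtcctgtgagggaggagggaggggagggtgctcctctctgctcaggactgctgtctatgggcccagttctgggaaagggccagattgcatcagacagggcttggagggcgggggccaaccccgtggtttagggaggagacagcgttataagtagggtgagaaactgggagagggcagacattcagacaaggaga

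Fam105b, which current RefSeq names Otulin, encodes a deubiquitinase that cuts linear ubiquitin chains (chromosome 15, 27597055 to 27630977). PKCε-null hearts held 23.3, 20.9, 21.2 and 19.3 CPM and combined hearts 36.2, 25.8, 27.9 and 39.4 CPM, without overlap. The log2 difference was 0.61 ± 0.12 (adjusted p = 0.031). Eppk1, epiplakin, a linker of intermediate filaments, was scarce at 1.90, 1.38, 1.10 and 0.797 CPM against 3.89, 2.05, 2.46 and 7.25 CPM. All 4 combined libraries were higher, by 1.57 ± 0.30 on the log2 scale (adjusted p = 0.022). At this level Eppk1 lay outside the rule for named genes, as did Clcn1, and Gpt did so because its groups overlapped. These 3 are named because they complete the set of called genes.

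Slc36a2, a proton-coupled transporter of small amino acids such as glycine and alanine (chromosome 11, 55158468 to 55185099), had the smallest adjusted p. It stood at 16.6, 19.98, 18.1 and 24.9 CPM in PKCε-null hearts and at 9.36, 8.74, 13.7 and 12.0 CPM in combined hearts. Every combined library was below every PKCε-null one, with a log2 difference of -0.85 ± 0.12 (adjusted p = 0.0011), and it was the 1 gene that stayed called with each of the 8 libraries left out in turn. Gpt2 and Gpt, the mitochondrial and cytosolic alanine aminotransferases that interconvert alanine and pyruvate, fell beside it. Gpt2 went from 30.5, 33.7, 31.6 and 33.9 CPM to 23.4, 27.5, 24.3 and 23.5 CPM (-0.40 ± 0.07, adjusted p = 0.011). Gpt went from 27.8, 34.9, 26.8 and 35.6 CPM to 20.6, 19.5, 22.7 and 27.6 CPM, overlapping at 1 library (-0.47 ± 0.10, adjusted p = 0.044). Slc25a42, the mitochondrial carrier that imports coenzyme A, was lower, at 70.8 to 83.6 against 54.5 to 66.8 CPM (log2 difference -0.35 ± 0.07, adjusted p = 0.044).

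Crhr2, the Gs-coupled receptor through which urocortins act on heart muscle, fell as well. Its levels were 29.4, 32.8, 29.9 and 35.6 CPM in PKCε-null and 16.8, 25.3, 23.7 and 17.1 CPM in combined hearts (log2 difference -0.62 ± 0.10, adjusted p = 0.0076). Combined replicates 1 and 4 were lowest, and no combined library reached the PKCε-null range. Pla2g5, a secreted phospholipase A2 that releases fatty acids from membranes, went from 10.4, 10.8, 13.2 and 18.3 CPM to 6.35, 4.71, 7.79 and 6.01 CPM (-1.06 ± 0.18, adjusted p = 0.0097). Hfe2, which RefSeq names Hjv, encodes hemojuvelin, a co-receptor of bone morphogenetic proteins made in striated muscle and liver. It stood at 161, 169, 162 and 200.03 CPM against 123, 147, 134 and 116 CPM (-0.41 ± 0.08, adjusted p = 0.018). Clcn1, the chloride channel of skeletal muscle membranes, was scarce and lower, at 2.47 to 4.32 against 0.82 to 1.99 CPM (-1.23 ± 0.25, adjusted p = 0.036). Of its exonic bases 8.2% are shared with a gene on the other strand.

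Hopx, a homeodomain protein that does not bind DNA and acts on serum response factor and histone deacetylases in heart muscle, went from 132, 156, 148 and 162 CPM to 116, 89.2, 106 and 130 CPM. The groups lay close but apart, with a log2 difference of -0.44 ± 0.09 (adjusted p = 0.031). Hdac11, the class IV histone deacetylase, went from 22.2, 25.1, 26.3 and 23.7 CPM to 16.8, 17.3, 19.5 and 20.1 CPM (-0.40 ± 0.07, adjusted p = 0.011). The libraries carry no strand, so both are uncertain: 27.2% of the exonic bases of Hopx and 17.9% of those of Hdac11 lie opposite other genes. The promoters of Crhr2 and of the first of the 2 Hopx starts are shown because they hold matches to factors of muscle genes. They are the 250 bases before each start on the minus strand (GRCm38.p6, chr6:55133017-55133266 and chr5:77115124-77115373), 5′ to 3′. Capitals mark a MEF2 match that begins 40 bases before the Crhr2 start and a CArG box, the element of serum response factor, that begins 83 bases before the Hopx start:
Crhr2: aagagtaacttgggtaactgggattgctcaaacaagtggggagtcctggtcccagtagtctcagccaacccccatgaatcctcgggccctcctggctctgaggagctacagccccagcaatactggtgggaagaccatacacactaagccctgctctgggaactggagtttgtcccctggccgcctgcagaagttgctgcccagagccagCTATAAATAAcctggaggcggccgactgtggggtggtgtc
Hopx: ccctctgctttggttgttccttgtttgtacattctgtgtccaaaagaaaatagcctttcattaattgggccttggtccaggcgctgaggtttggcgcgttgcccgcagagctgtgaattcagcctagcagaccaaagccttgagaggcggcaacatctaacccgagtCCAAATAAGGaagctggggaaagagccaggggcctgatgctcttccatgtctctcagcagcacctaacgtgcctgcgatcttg

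RefSeq's table held promoters for 9 of the 13 genes, with 11 starts, and 8 motifs were searched on both strands from 250 bases before to 50 bases after each start. The AP-1 site was searched as TGANTCA, the cAMP response element, an element of signalling downstream of receptors such as Crhr2, as TGACGTCA, and the E-box as CACGTG. The site of the TEAD factors, known from muscle and growth control, was GGAATG, that of the ERR nuclear receptors of energy metabolism TNAAGGTCA and that of the cardiac GATA factors AGATAAG. The CArG box and MEF2 were searched by their usual patterns. MEF2 matched Crhr2 and Clcn1, against 3.19% of 32851 promoters of the same length, and its pattern overlaps that of a TATA box. The E-box matched Nupr1 and the second Hopx start (7.15% of all), TEAD matched Fam105b, Hdac11 and Pla2g5 (14.7%), and the CArG box matched Hopx (1.63%). No motif was held by more than 3 of the 9 genes, and these matches are letters, not binding sites.

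**Figure D2:**
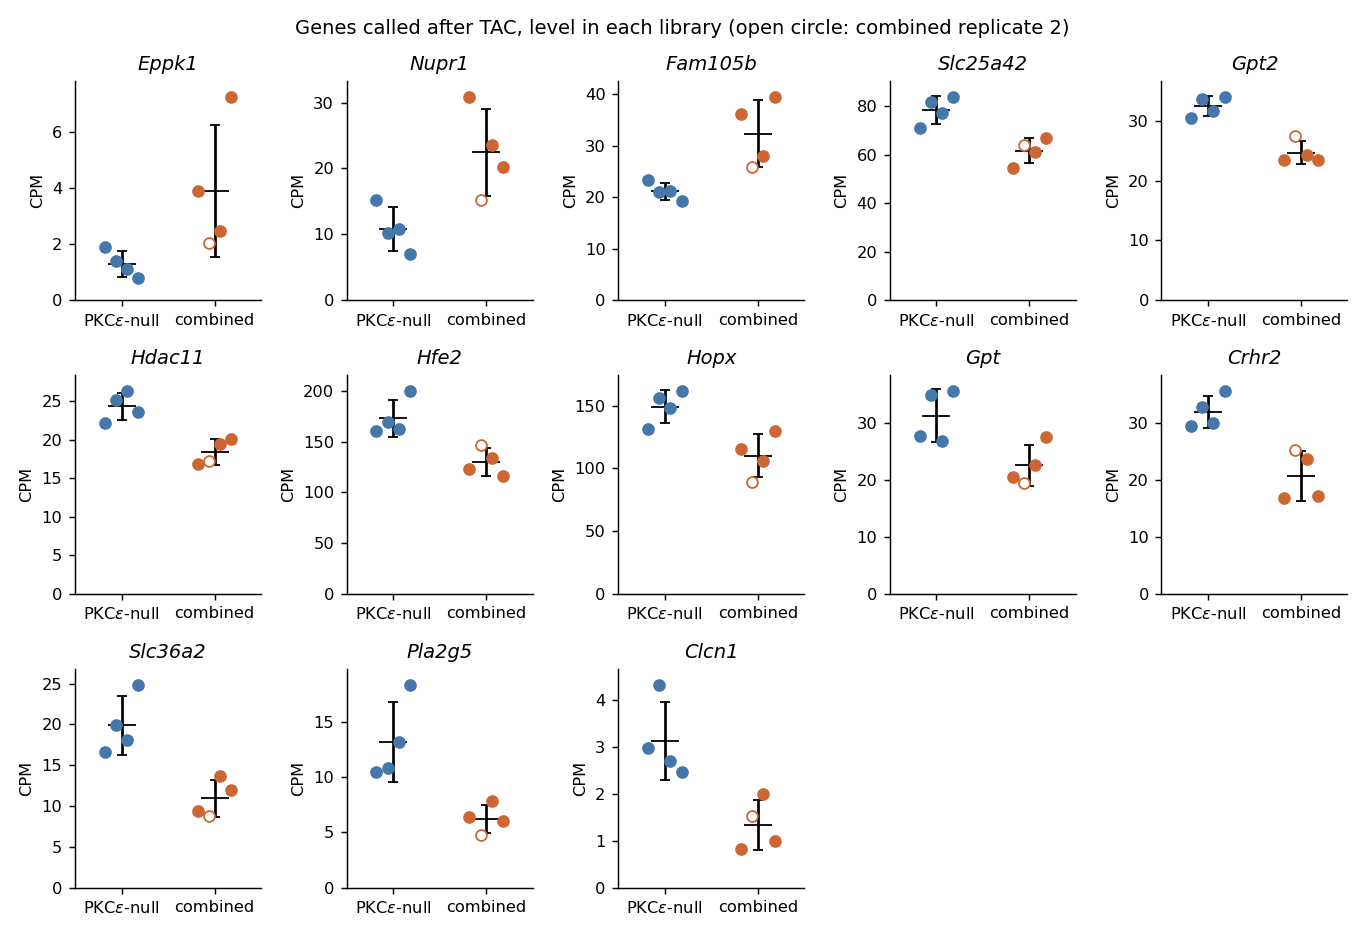
CPM of the 13 called genes in each TAC library (points) with the mean and SD of each group (bar and whiskers). Open circles are the library labelled combined replicate 2. Every combined library lies below the PKCε-null libraries for Slc36a2, at 8.74 to 13.7 against 16.6 to 24.9 CPM.

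Among genes with a mean log2 CPM of 2 or more, a limit that leaves out Eppk1, the 6 of smallest p with higher levels in combined hearts were Nupr1, Fam105b, Dusp27, Xirp2, Calcrl and Abra. Dusp27, a phosphatase-like protein of striated muscle, stood at 93.7 to 122 CPM in PKCε-null and 125 to 153 CPM in combined libraries (0.34 ± 0.07, adjusted p = 0.0502). Xirp2, an actin-binding protein of the intercalated disc and Z disc, stood at 1691, 1030, 1190 and 977 against 2246, 1763, 2097 and 1632 CPM (0.66 ± 0.14, adjusted p = 0.0502). Calcrl, the receptor subunit for adrenomedullin and CGRP, stood at 9.96 to 14.2 against 16.2 to 20.2 CPM (adjusted p = 0.055). Abra, an actin-binding activator of serum response factor signalling, stood at 85.3 to 114 against 113 to 217 CPM (adjusted p = 0.057). None of the last 4 passed the test. The groups lay apart for Dusp27 and Calcrl and overlapped slightly for Xirp2 and Abra.

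Without the library labelled combined replicate 2, 234 genes (1.7%) were called, 156 higher (1.13%) and 78 lower (0.567%), with all 13 among them. At an unadjusted p under 0.05 stood 2021 genes (14.7%), 1141 higher (8.29%) and 880 lower (6.39%). The groups of 3 and 4 did not overlap for 187 of the 234, where 4.65% of all genes lay fully higher and 4.13% fully lower. The median difference of the 234 was 1.40-fold, and 24 differed at least 2-fold. For 137 of the 234 the left-out library lay within the range of the PKCε-null libraries, for 64 beyond it on the side of the other combined libraries and for 33 beyond it on the opposite side. These counts describe the genes and are no check of the library, since 221 of the 234 were called only with it left out, a choice that favours genes in which it lay toward the PKCε-null values. With the sex label as a term as well, 10 genes were called.

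Secreted and signalling proteins were among the genes that differed most without that library. Genes named here were among the 8 largest in each direction by the same limits on level and overlap, chosen after their values were seen. Ndnf, a secreted factor first described in neurons, stood at 11.2, 6.37, 9.58 and 2.63 CPM in PKCε-null and 34.0, 5.55, 15.8 and 14.0 CPM in combined libraries. Without replicate 2 it was higher by 1.495 ± 0.36 (log2, adjusted p = 0.039). Gem, a small GTPase that restrains L-type calcium channels, stood at 4.86 to 8.03 CPM against 15.7, 8.91 and 15.6 CPM and 5.09 CPM (1.05 ± 0.22, adjusted p = 0.013). For Krt80, Ndrg4 and Chrd the library labelled replicate 2 lay below all PKCε-null ones, and they rose by 1.20, 1.07 and 0.98 without it. Star, the cholesterol importer of steroid synthesis, differed by 1.13 ± 0.24 (adjusted p = 0.016), and Nupr1 was also among them. Ndnf, Ndrg4 and Gem were also called higher in unstressed combined hearts (adjusted p = 0.00021, 0.0015 and 0.013), so their difference was not confined to TAC. Ndnf differed there by 3.21 ± 0.53 and Ndrg4 by 1.91 ± 0.40 on the log2 scale. Unstressed PKCδ-ablated hearts held 19.0 CPM of Ndnf and unstressed wild-type hearts 2.69 CPM. Krt80, Star, Chrd and Nupr1 were not called in unstressed hearts.

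In the other direction Mylk4, a kinase of the myosin light chain kinase family, had the smallest adjusted p without that library. Its levels were 118, 111, 116 and 155 CPM in PKCε-null and 64.8, 133, 74.3 and 65.8 CPM in combined libraries. The library labelled replicate 2 sat among the PKCε-null values and the other 3 far below (-0.87 ± 0.10, adjusted p = 4.65e-05, against -0.57 ± 0.16 and adjusted p = 0.16 with it). Angpt1, the ligand that activates the endothelial receptor Tie2, went from 5.71 to 11.8 CPM down to 4.65, 4.04 and 3.96 CPM, with 10.7 CPM in the left-out library (-0.99 ± 0.23, adjusted p = 0.025). Of its exonic bases 14.2% lie opposite another gene. Rbfox1, a splicing regulator, fell by 0.78 (adjusted p = 0.014), Cmss1 by 0.77 (adjusted p = 0.023) and Pkd2l2, of the polycystin channel family, by 0.84 (adjusted p = 0.021), each without replicate 2. Slc36a2, Crhr2 and Pla2g5 made up the 8. Angpt1 and Cmss1 were also called lower in unstressed combined hearts, by -1.29 ± 0.26 and -0.92 ± 0.24 on the log2 scale, and the rest of the 8 were not called there.

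Of 39 lists of cardiac pathways, none had a called member with all 4 combined libraries, and 17 had at least 1 without the library labelled replicate 2. Lists are therefore described by their counts at an unadjusted p under 0.05, beside 5.75% of all genes higher and 5.16% lower, and by their median log2 difference, beside 0.01 over all genes. Of 24 genes of stress and the fetal program 11 were higher and none lower at that level, with a median of 0.37. Nppa, atrial natriuretic peptide, stood at 5272, 1558, 2514 and 1195 CPM in PKCε-null and 7151, 1681, 6254 and 5468 CPM in combined hearts. Combined replicates 1, 3 and 4 exceeded all PKCε-null ones and replicate 2 did not, and the difference of 0.96 ± 0.41 was not called (adjusted p = 0.39, and 1.26 ± 0.38 with adjusted p = 0.094 without replicate 2). Opposite-strand exons cover 61.5% of Nppa. The B-type peptide gene Nppb stood 0.65 ± 0.30 higher (adjusted p = 0.43). The skeletal actin gene Acta1 stood 0.79 ± 0.40 higher (adjusted p = 0.49), and Ankrd1, whose protein binds titin, 0.48 ± 0.31 (adjusted p = 0.62).

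Myh7, the β-myosin heavy chain, split the combined hearts, at 2849, 3822, 6170 and 3430 against 9539, 3672, 4564 and 10313 CPM. Combined replicates 1 and 4 were above and the other two within the PKCε-null range (0.79 ± 0.35, adjusted p = 0.41). Myh6, the adult α-myosin heavy chain, stood at 44326 to 54529 against 44131 to 45951 CPM (-0.19 ± 0.08, adjusted p = 0.32). The members of the stress list called without replicate 2 were Xirp1 (0.53 ± 0.10), Xirp2 (0.70 ± 0.15), Csrp3 (0.39) and Des (0.49 ± 0.09), all of the Z disc, disc or intermediate filaments. For Des, desmin, the levels were 5739, 4326, 4366 and 3858 against 7263, 4444, 6194 and 5800 CPM.

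Among 24 desmosome and intercalated disc genes 7 were higher and none lower at an unadjusted p under 0.05, with a median of 0.09. Synpo2l, an actin-associated Z disc protein, stood at 407 to 645 CPM against 947, 464, 765 and 883 CPM, and passed the test only without replicate 2 (0.77 ± 0.15, adjusted p = 0.013). Pkp2 and Dsp, plakophilin and desmoplakin of the desmosome, differed by 0.25 ± 0.07 (adjusted p = 0.15) and 0.19 ± 0.07 (adjusted p = 0.27). In the sarcomere list 5 of 24 were higher and 2 lower at that level.

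Matrix genes leaned higher at the same level without a call. Of 24 matricellular and elastic fibre genes 7 were higher and none lower (median 0.42), of 24 proteases, inhibitors and cross-linkers 7 and none (median 0.30), and of 18 collagens 2 and none (median 0.09). Mfap5, a microfibril protein, stood at 59.2, 40.3, 51.4 and 29.7 CPM in PKCε-null and 110, 45.5, 70.0 and 85.1 CPM in combined hearts (0.78 ± 0.20, adjusted p = 0.10). Without replicate 2 it was called, at 0.97 ± 0.17 (adjusted p = 0.0059), as were Fbln2, Mmp2 (0.53 ± 0.13) and Serpine2 (0.56 ± 0.14), a protease inhibitor. Thbs4, a thrombospondin, differed by 1.09 ± 0.35 (adjusted p = 0.23) and Ltbp2, a microfibril protein of the latent TGF-β binding protein family, by 0.92 ± 0.34 (adjusted p = 0.29). Postn, periostin, at 255, 131, 185 and 72.7 against 468, 137, 325 and 212 CPM, and Col1a1 (0.18 ± 0.23) did not pass either way (adjusted p = 0.13 and 0.50 without replicate 2).

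Lists of growth factor signalling had no common direction. Of 25 genes of TGF-β and activin signalling 5 were higher and 2 lower at an unadjusted p under 0.05 (median 0.16), and of 13 genes of the EGF family and its ErbB receptors 1 was higher and 1 lower (median -0.05). Ctgf, a matricellular growth factor now named Ccn2, stood at 350, 133, 332 and 163 against 978, 263, 412 and 475 CPM (1.12 ± 0.38, adjusted p = 0.25), with 23.2% of its exonic bases opposite another gene. Tgfb2, a ligand, stood at 34.0, 18.3, 20.8 and 17.0 against 37.1, 24.9, 42.8 and 27.8 CPM, and Tgfbr1, the type I receptor, at 7.73 to 9.58 against 9.80 to 14.4 CPM. Neither was called with all libraries (adjusted p = 0.18 and 0.096), and both were without replicate 2 (0.67 ± 0.17 and 0.57 ± 0.13). Hbegf, the heparin-binding ligand of the EGF receptor family, stood at 40.7, 21.2, 26.9 and 22.6 against 54.7, 28.9, 44.4 and 55.6 CPM. It was called only without replicate 2 (0.89 ± 0.15, adjusted p = 0.0058, against 0.72 ± 0.18, adjusted p = 0.094). Erbb3, a receptor of that family, stood at 14.7, 17.5, 14.1 and 17.4 against 9.29, 13.6, 16.1 and 15.1 CPM (-0.23 ± 0.12, unadjusted p = 0.062, adjusted p = 0.49). It was thus not the lower gene counted above. Of 24 immediate early genes 6 were higher and none lower at an unadjusted p under 0.05 (median 0.37), led by Maff, a small MAF factor (8.86 to 13.5 against 13.9 to 32.3 CPM). Maff and Klf4 were called without replicate 2.

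Metabolic transcripts leaned the other way. Of 35 genes of fatty acid uptake and oxidation 11 were lower and none higher at an unadjusted p under 0.05 (median -0.14), of 22 PGC-1, PPAR and ERR regulators 6 and none (median -0.11), and of 20 genes of branched-chain amino acid catabolism 4 and none (median -0.10). Acaa2, the thiolase of mitochondrial β-oxidation, stood at 399, 473, 435 and 604 against 297, 429, 362 and 375 CPM (-0.39 ± 0.10, adjusted p = 0.096). It and Cpt2, the inner-membrane carnitine palmitoyltransferase, were called without replicate 2 (-0.47 ± 0.10 and -0.40 ± 0.09). Rxrg, a retinoid X receptor, and Ppara, the lipid-sensing receptor, were not called with or without it (adjusted p = 0.058 and 0.11 without). At that level 5 of 44 respiratory chain genes were lower and none higher, and 5 of 27 glycolysis genes were higher and 1 lower.

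At the same level 6 of 30 channel genes were lower and 1 higher, and of 29 calcium-handling genes 3 were lower and 2 higher. Atp2a2, the SERCA2 pump, stood at 7394, 9476, 8801 and 10428 CPM in PKCε-null and 6991, 9186, 6592 and 7073 CPM in combined hearts. It fell without replicate 2 (-0.39 ± 0.09, adjusted p = 0.016, against -0.27 ± 0.09, adjusted p = 0.23 with it), and so did Hrc, a calcium-binding protein of the sarcoplasmic reticulum (-0.50 ± 0.10, adjusted p = 0.013). Scn4a, the skeletal muscle sodium channel, stood at 51.9 to 66.9 against 33.1 to 43.1 CPM, with the replicate 2 label on the low side (-0.68 ± 0.15, adjusted p = 0.062). Kcnd2, a channel of the transient outward current, stood at 13.1 to 17.7 against 9.36 to 13.5 CPM (-0.53 ± 0.13, adjusted p = 0.097). Kcnj14, an inward rectifier, was called higher without replicate 2 (2.76 ± 0.61), but replicate 4 alone held 67.0 CPM while the other 3 combined libraries held 2.58 to 7.56, within or next to 2.14 to 7.30 CPM in PKCε-null hearts. In unstressed hearts Kcnj14 stood at 38.9 ± 7.03 CPM (SD) in combined and 0.893 ± 0.134 CPM in PKCε-null libraries, a called difference of 5.44 ± 0.98. Of the 12 measured protein kinase C genes none was called, and apart from Prkcd and Prkce none had an unadjusted p under 0.05.

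The remaining 8 of 22 cardiac genes chosen for display, among them Ryr2, Pln, Pdk4 and Ppargc1a, differed by -0.19 to 0.10 on the log2 scale, with adjusted p of 0.66 or higher. None of the 22 was called with all libraries and 3 were without replicate 2, Xirp2, Tgfb2 and Atp2a2.

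**Figure D3:**
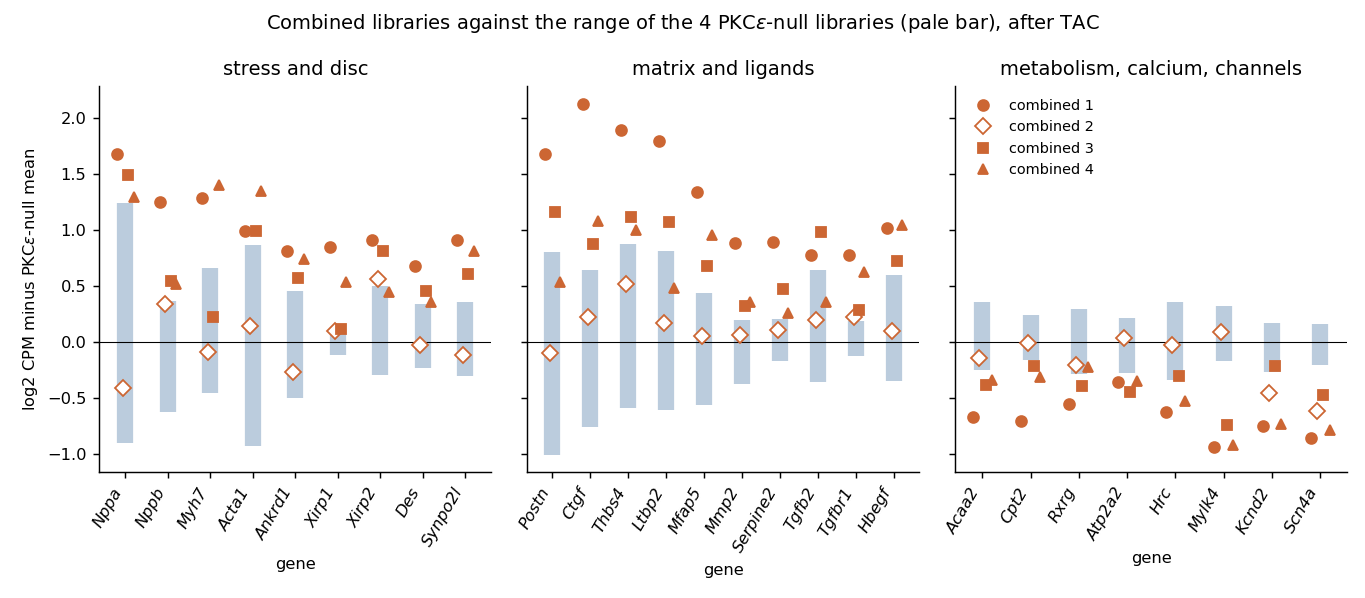
Log2 CPM of each combined TAC library minus the mean of the 4 PKCε-null libraries, for genes of stress and the disc, matrix and ligands, and metabolism, calcium and channels. Pale bars span the PKCε-null libraries and open diamonds are the library labelled combined replicate 2. It lies inside the bar for all genes shown except Xirp2, Tgfbr1, Kcnd2 and Scn4a. Many genes shown were called only with it left out, a choice that favours such positions, so they are no check of the library.

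**Figure D4:**
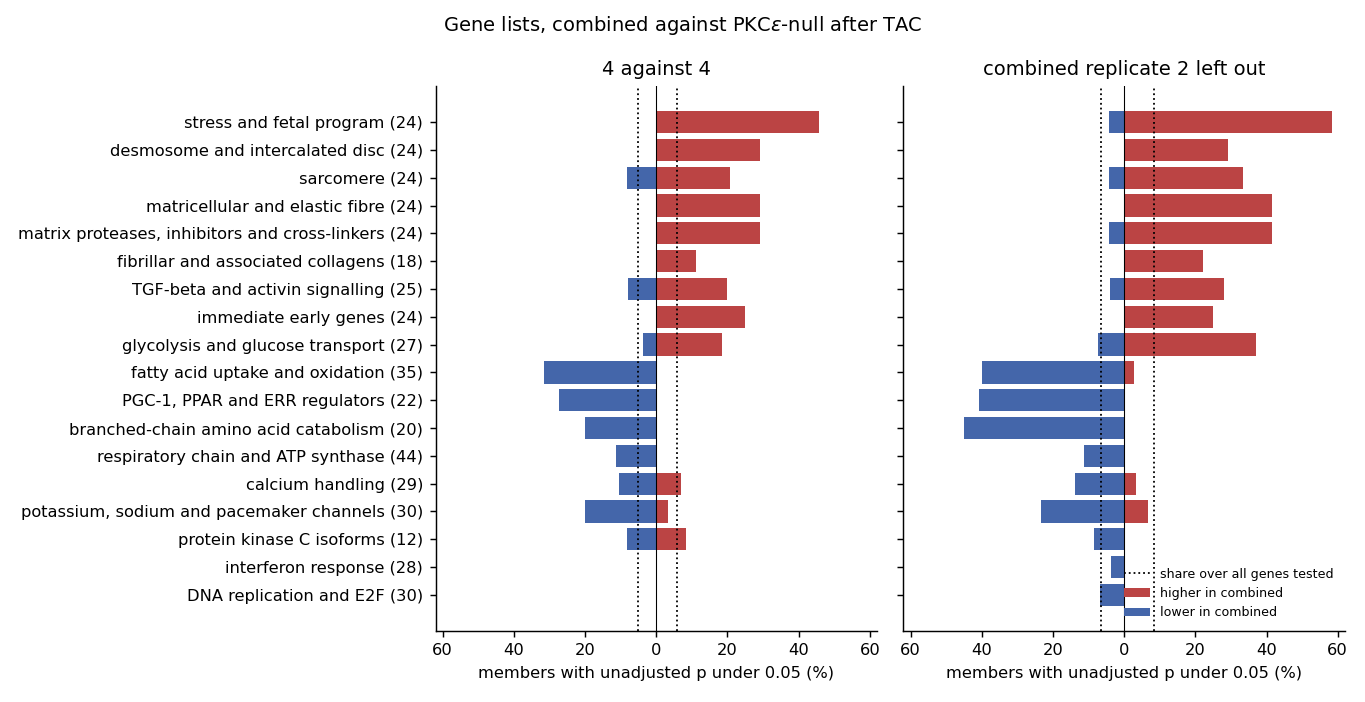
Share of each list's measured members (number in brackets) with an unadjusted p under 0.05, higher (right) or lower (left) in combined than in PKCε-null hearts after TAC, with and without combined replicate 2. Dotted lines are the shares over all genes, 5.75% and 5.16% with all libraries and 8.29% and 6.39% without.

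Of 17 lists of cell type and sex-linked markers none had a called member with all libraries. Without replicate 2 there were 3 that did: atrial myocyte (Stard10 and Kcnj3, both lower), fibroblast (Mfap5) and pericyte and smooth muscle (Des). All 12 cardiomyocyte markers passed the filter on low counts. Markers at 0 in all 8 libraries were 4 of 10 erythroid and platelet genes and 1 each of skeletal muscle, lymphatic endothelium and conduction system. The summed level of 12 cardiomyocyte markers ran from 105000 to 122000 CPM in PKCε-null and 102000 to 113000 CPM in combined libraries, and that of 15 fibroblast markers from 3330 to 4920 and 3820 to 5360 CPM. The macrophage sum was 434 to 471 against 418 to 486 CPM, and the endothelial sum 2040 to 2290 against 2170 to 2410 CPM. The ranges overlapped for each of these. At an unadjusted p under 0.05, beside 5.75% of all genes higher, 3 of 15 fibroblast and 4 of 15 endothelial markers were higher with none lower, and 3 of 9 atrial myocyte markers were higher with 1 lower. Their part in the values above was not tested.

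The same genotypes without TAC differed in more genes. Combined against PKCε-null unstressed hearts (4 against 3) gave 3482 called genes (25.3%), 1858 higher and 1624 lower, and 1995 without unstressed PKCε-null replicate 1. The median absolute log2 difference over all genes was 0.231 there and 0.109 after TAC. The difference itself differed between the conditions for 1852 genes (13.5%), 861 more positive (6.25%) and 991 more negative (7.2%) after TAC, by an interaction term in the same fit. Of these 1644 were called in unstressed hearts, 11 after TAC, and 1710 had the larger absolute difference in unstressed hearts. Without combined replicate 2 they numbered 1480 (10.8%; 677 more positive, 4.92%, and 803 more negative, 5.83%), with the sex label as a term 691, and 1004 were left without unstressed PKCε-null replicate 1. Unstressed hearts shared no library with the TAC groups.

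Of the 13 genes called after TAC, 3 were called in unstressed hearts and 10 were not, beside 25.3% of all genes called there. The interaction was called for 11 of the 13, beside 13.5% of all genes. It contains the TAC difference by which the 13 were chosen. That choice favours a called interaction, so these interactions are no separate support. Crhr2 stood at 50.9 ± 1.14 CPM (SD, n = 3) in unstressed PKCε-null and 51.6 ± 4.86 (n = 4) in unstressed combined hearts, a log2 difference of 0.02 ± 0.11, and its difference after TAC was 0.64 lower (interaction -0.64 ± 0.15, adjusted p = 0.0050). Nupr1 stood at 4.45 ± 0.16 and 4.30 ± 0.493 CPM in those groups (interaction 1.103 ± 0.31, adjusted p = 0.017). Hdac11 and Gpt2 were called in both conditions in opposite directions, at 0.24 ± 0.08 (adjusted p = 0.021) and 0.20 ± 0.07 (adjusted p = 0.042) in unstressed hearts. Eppk1 was called in the same direction in both, at 2.75 ± 0.44 in unstressed hearts, from 0.433 ± 0.0447 to 2.95 ± 0.456 CPM. The interaction was not called for Eppk1 (adjusted p = 0.17) and Hfe2 (adjusted p = 0.11). Of the 234 genes, 81 were called in unstressed hearts, beside 25.3% of all genes, 71 of them in the same direction. The interaction without combined replicate 2 was called for 59, beside 10.8% of all genes, with the same limit.

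The stress list had no common direction by interaction. Of its 24 genes 3 were called more positive and 3 more negative after TAC, and 5 were higher and 2 lower in unstressed combined hearts. Acta1 was higher there (2.56 ± 0.47, adjusted p = 0.00061), with an interaction of -1.76 ± 0.60 that was not called (adjusted p = 0.054). Some other stress and matrix genes had a called interaction and fitted differences of opposite sign, negative in unstressed hearts and positive after TAC. With all libraries none of those given here was called after TAC. Xirp2 was lower in unstressed combined hearts (-0.56 ± 0.15, adjusted p = 0.0072), with an interaction of 1.23 ± 0.20 (adjusted p = 0.00055). Serpine2 was lower there as well (-0.60 ± 0.16, adjusted p = 0.0071; interaction 1.06 ± 0.21, adjusted p = 0.0020), and Hbegf, not called in unstressed hearts (-0.52 ± 0.22, adjusted p = 0.089), had an interaction of 1.24 ± 0.29 (adjusted p = 0.00595). Myh7 stood at 183 ± 11.1 CPM in unstressed combined against 3362 ± 960 CPM in unstressed PKCε-null hearts (-4.20 ± 0.41, adjusted p = 8.44e-07). Unstressed wild-type hearts held 187 ± 19.3 CPM and unstressed PKCδ-ablated hearts 138 ± 8.51 CPM, so the unstressed PKCε-null group was the one that stood apart. The Myh7 interaction of 4.99 ± 0.53 was the largest among the genes named here. Of its exonic bases 13.3% lie opposite other genes.

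Of 30 DNA replication genes 16 were higher in unstressed combined hearts and none lower, while none was called after TAC and 12 had a lower difference after TAC by the interaction test. For 25 measured genes of mitosis the counts were 12 higher, none called after TAC and 6 by interaction. Fatty acid genes were lower in unstressed combined hearts in 19 of 35, with 1 higher, and respiratory chain genes in 17 of 44. Over all genes 13.5% were higher and 11.8% lower in unstressed combined hearts.

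**Figure D5:**
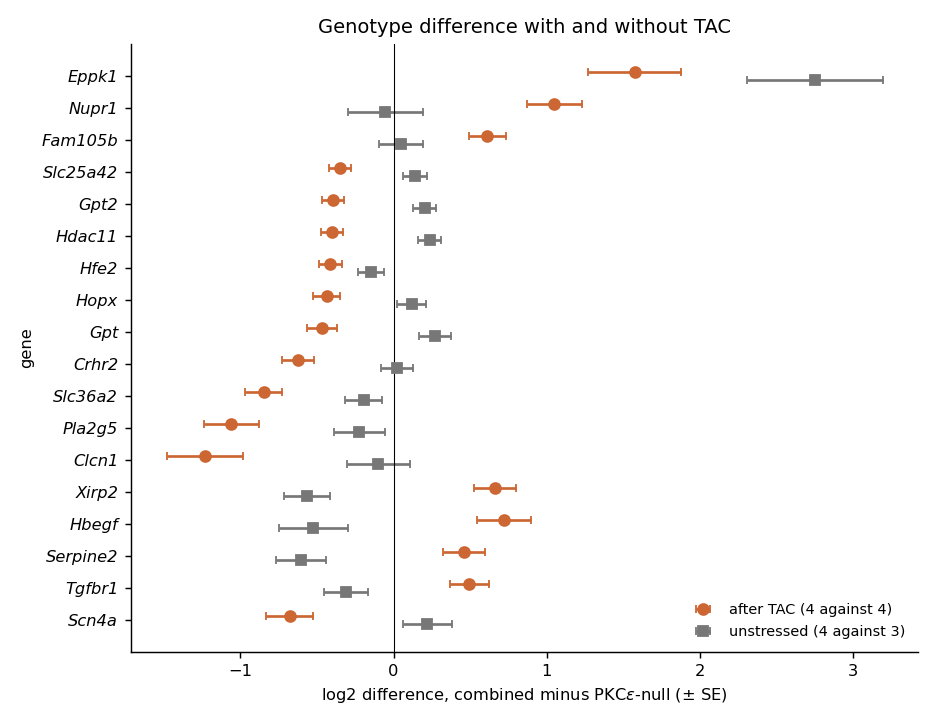
Log2 difference between combined and PKCε-null hearts (± SE) after TAC and in unstressed hearts, for the 13 called genes and 5 genes described in the text. Crhr2 stands at -0.62 after TAC and 0.02 in unstressed hearts, while Eppk1 is higher in both.

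A last comparison set the change against that made by PKCδ ablation in TAC hearts with intact PKCε (3 PKCδ-ablated, 4 wild type, no library shared). With all libraries the 2 differences did not differ for any gene at an adjusted p under 0.05 (edgeR, 0 called; 1297 genes at an unadjusted p under 0.05; DESeq2 called 23). Without the library labelled combined replicate 2, 189 genes (1.37%) did, 131 more positive (0.952%) and 58 more negative (0.421%) on the PKCε-null background. For Mylk4 the PKCδ-ablated minus wild-type difference was 0.30 ± 0.17 and the PKCε-null one -0.87 ± 0.10 without replicate 2, a gap of -1.17 ± 0.14 (adjusted p = 9.02e-05). Nupr1 was -0.41 ± 0.20 with intact PKCε, a gap of 1.60 ± 0.25 (adjusted p = 0.0031). Crhr2 was 0.06 ± 0.11 there, a gap of -0.79 ± 0.14 (adjusted p = 0.012). Mylk4, Nupr1 and Crhr2 were named for their TAC difference on the PKCε-null background, which is part of the gap. That choice favours a called gap.

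Of the 4 fetal genes Nppa, Nppb, Myh7 and Acta1, Nppa and Myh7 were among the 189. Nppa differed by -1.16 ± 0.46 and Myh7 by -1.30 ± 0.39 between PKCδ-ablated and wild-type TAC hearts, neither called (adjusted p = 0.853 for each). Their gaps to the PKCε-null background were 2.41 ± 0.55 (adjusted p = 0.031) and 2.30 ± 0.50 (adjusted p = 0.025) without replicate 2, and 2.12 ± 0.62 (adjusted p = 0.28) and 2.09 ± 0.52 (adjusted p = 0.19) with it. The gaps of Nppb (0.90 ± 0.46, adjusted p = 0.38) and Acta1 (1.20 ± 0.59, adjusted p = 0.35) were not called even without replicate 2. With the sex label as a term and without replicate 2, 135 genes were called, and without PKCε-null replicate 1, with replicate 2 kept, 39. Without wild-type replicate 4 there was 1 call. Wild-type replicate 2 held 24.0 CPM of Prkce, against 33.3 to 42.9 CPM in the other wild-type TAC libraries. With combined replicate 2 kept, 0 genes were called with or without wild-type replicate 2, so that fit says nothing of the 189. These were not tested with both libraries left out.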

How the data were processed

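Polyadenylated RNA was measured in 29 mouse heart libraries, 8 of them compared here. The authors deposited raw counts per gene symbol. The submitters' processing notes name mm10, Bowtie2, TopHat2 2.0.10, HTSeq, DESeq and edgeR, and the annotation used for counting is not given in the sources used here. Libraries were single-end without strand, per the labels' protocols, so reads of genes that overlap on opposite strands cannot be told apart. Each library listed 23420 genes and 5 totals of other reads, not used here. In the 8 libraries 0.863% to 0.937% of reads fell on several genes and 11.1% to 14.2% aligned to several places.

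Differences were tested with the quasi-likelihood method of edgeR 4.0.16 (limma 3.58.1, R 4.3.3), with TMM normalization, robust dispersion and group means without covariates. After filtering of low counts by group 13765 genes were tested. All 29 libraries shared 1 fit with 21 residual degrees of freedom, or 20 without combined replicate 2. Benjamini-Hochberg adjustment ran over all genes of a comparison. CPM used TMM library sizes. The method was tested on simulated counts of the same design, drawn independently for each library. These held no mislabelled library and no sex difference, so that run checks the code and not the calls given here.

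The comparison, gene lists and rules were chosen with earlier results of these data known. Named genes were Prkcd, Prkce and the called genes that had a mean log2 CPM of 2 or more, did not overlap between groups and stayed called without combined replicate 2, filled to 6 per direction by p. Added were the 3 members of smallest p in each list described and 22 cardiac genes. Csrp3, Fbln2, Klf4, Stard10, Kcnj3, Dusp4 and Rpl3 were named after their values were seen. Some results are not reported here. Alternatives were RLE normalization, no filter, a sex label or Y-linked score as a term, the replicate number as a block, smaller sets of libraries, each library left out, and DESeq2 1.42.0. Gene positions and promoters are those of RefSeq on GRCm38.p6 (13715 of the 13765 genes matched), and opposite-strand exons those of GENCODE vM21. Plots used matplotlib 3.10.9 under Python 3.11.15.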

Additional observations from a re-analysis of the deposited data

Results flagged for a closer look

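In a group of 4 libraries 1 library stood far from the other 3 by Dixon's ratio in 6 of 124 groups checked over the named genes, where chance gives about 1 in 20 groups. Combined replicate 2 was the one in 3 of them, which adds no evidence about that library, since Prkce had singled it out and Angpt1 and Mylk4 were named because they were called only without it. It held 31.5 CPM of Prkce where the other 3 combined libraries held 8.20 to 10.97. It held 10.7 CPM of Angpt1 where they held 3.96 to 4.65, and 133 CPM of Mylk4 where they held 64.8 to 74.3. PKCε-null replicate 4 held 155 CPM of Mylk4 against 111 to 118 in its group, and PKCε-null replicate 1 held 8.57 CPM of Star against 4.21 to 4.54. Combined replicate 4 held 67.0 CPM of Kcnj14 against 2.58 to 7.56, while unstressed combined hearts held 38.9 ± 7.03 CPM (SD).

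The genotype difference itself differed between TAC and unstressed hearts for 1852 genes by the interaction test. Among the genes called after TAC, a choice that favours a called interaction, the difference was more positive after TAC for Nupr1 (1.1 on the log2 scale) and Fam105b (0.56). It was more negative for Clcn1 (-1.13), Pla2g5 (-0.84), Gpt (-0.74), Slc36a2 (-0.65), Crhr2 (-0.64), Hdac11 (-0.63), Gpt2 (-0.60), Hopx (-0.56) and Slc25a42 (-0.49). Among the other genes named it was more positive for Myh7 (4.99), Hbegf (1.24), Xirp2 (1.23), Serpine2 (1.06), Calcrl (1.02), Tgfbr1 (0.81), Pkp2 (0.39) and Dsp (0.35), and more negative for Scn4a (-0.90).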

How the results depend on the processing

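The 13 calls after TAC became 22 with no filter on low counts, 141 with the Y-linked score as a term and 113 with DESeq2. They became 0 with the sex label as a term, 0 with only libraries labelled male (681 genes at an unadjusted p under 0.05, 1 combined library left), 0 with only the 15 TAC libraries and 0 with only the libraries compared. RLE normalization gave 13, the same genes. Leaving out each library in turn gave 1 to 234 calls, the lowest without combined replicate 1 and the highest without combined replicate 2. With the replicate block 28 genes were called, all 13 among them, but same-numbered libraries did not deviate together (correlations of -0.23 to -0.039), so the numbers do not pair them. Without combined replicate 2 and with the sex label as a term, 10 were called, 4 of the 13 among them. The 3482 unstressed calls ran from 1995 to 3310 with each library left out. The 1852 interactions became 691 with the sex label, 647 with the sex label and without combined replicate 2, 161 with only libraries labelled male and 939 with only the groups compared, and ran from 1004 to 2265 with each library left out. The 0 genes that differed between PKCε-null and PKCε-intact backgrounds became 5 with the Y-linked score, 23 with DESeq2, 1 with only libraries labelled male and 135 without combined replicate 2 with the sex label, and ran from 0 to 189 with each library left out. Of the named genes, Prkcd turned to 0.043 with only libraries labelled male, and Prkce to -0.20 there and to -0.13 without combined replicate 2 with the sex label. The cause of these shifts was not tested. Smaller sets of libraries leave fewer residual degrees of freedom. Of the 13 called genes Eppk1 and Clcn1 rest on the fewest reads, with SEs of 0.30 and 0.25 on the log2 scale.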

Other observations

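Lists not described above also had no called member with all libraries. At an unadjusted p under 0.05, 3 of 16 proteoglycan genes were higher and 1 lower (median log2 difference 0.21), as were 4 of 26 NRF2 antioxidant genes and 4 of 23 genes of the BCL-2 family and cell death with none lower. Of 17 ERK feedback genes 3 were higher and none lower, and Dusp4, a phosphatase that ends ERK signalling, was called without combined replicate 2 (0.97 on the log2 scale). Of 28 interferon genes and of 20 chemokines and cytokines none had an unadjusted p under 0.05 in either direction, and of 19 clock genes none. Of 28 heat shock genes 1 was higher and 1 lower with all libraries, against 3 and 6 without combined replicate 2. Cytosolic ribosomal protein genes had a median of 0.06 over 46 genes, and Rpl3 was called without combined replicate 2 (0.34).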
